A study of Mus musculus with 7 samples.

Results

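The serpins are a large family of secreted and intracellular proteins, most of which inhibit serine proteases, and 47 of their genes were measured here among 19938 genes in all. They were taken by name, as every probe set on the array with a single gene symbol of the form Serpin followed by a clade letter from a to i and a number, and each of the 47 had 1 such probe set. By clade, 19 belonged to clades A, C, D, F and G, whose products are secreted, 24 to clade B, which mostly stays inside the cell, and 4 to clades E, H and I. Another 5 probe sets covered several serpin genes at once, 2 of them in the *Serpina1* group and 3 in the *Serpinb9* group, and were left out. The RefSeq annotation of assembly GRCm38.p6 lists 64 symbols of this form, and the remaining 17 were not analysed here.

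Hepatocytes, the main cells of the liver, were isolated from male C57BL/6J mice with collagenase and a Percoll gradient, which separates them from the other liver cells. They were transfected with 1 µg of a miR-709 mimic (4 arrays, replicates A to D) or of Cel-239b, a worm miRNA that serves as the control (3 arrays, replicates B to D). After 24 h, total RNA was hybridised to Affymetrix Mouse Gene 1.0 ST arrays, and the comparison asks which genes an excess of miR-709 lowers or raises. Neither the methods nor the sample records tell whether replicates were separate mice or isolations, so p-values here measure only the spread between these arrays.

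An inhibitory serpin offers a protease an exposed loop as bait. When the loop is cut, the serpin changes shape and traps the enzyme in a covalent complex, so each molecule works once. The liver is the main source of the plasma serpins, which restrain neutrophil elastase (alpha-1 antitrypsin), thrombin and factor Xa (antithrombin), plasmin (alpha-2 antiplasmin) and the first complement component (C1 inhibitor). A few serpins inhibit nothing and carry hormones instead, thyroxine by thyroxine-binding globulin and glucocorticoids by corticosteroid-binding globulin. Clade B serpins lack a classical secretion signal and protect cells from proteases such as granzymes and cathepsins.

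Promoters are shown because alpha-1 antitrypsin genes are a classical target of the liver factor HNF1, whose recognition sequence has the half-site GTTAAT. Of the 47 genes, 41 had a promoter in the RefSeq table (250 bases before to 50 after a start site, GRCm38.p6). GTTAAT, on either strand, was in at least 1 such window for 6 of the 41 genes and for 8.24% of all 27025 genes of the table (7.10% of its 32851 promoters). Among the secreted clades 3 of 15 genes with a promoter held it. The 4 of the 6 genes whose half-site reads on the gene's own strand are shown; in *Serpinb3d* and *Serpini2*, both dim and not called, it reads on the opposite strand. Each stretch lies upstream of the start site and is written 5′ to 3′ on the strand of the gene, with the half-site in capitals.
*Serpina7* (chrX:139085261-139085320, minus strand): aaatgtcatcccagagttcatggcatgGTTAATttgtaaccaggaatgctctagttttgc
*Serpina1c* (chr12:103904951-103905010, minus strand): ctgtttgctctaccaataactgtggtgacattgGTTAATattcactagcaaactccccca
*Serpina1d* (chr12:103773634-103773693, minus strand): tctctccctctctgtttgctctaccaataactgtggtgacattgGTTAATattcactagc
*Serpinb8* (chr1:107589772-107589831, plus strand): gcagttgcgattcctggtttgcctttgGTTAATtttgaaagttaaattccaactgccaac
The half-site began 57 bases before the start site of *Serpina7*, 27 before that of *Serpina1c*, 16 before that of *Serpina1d* and 207 before that of *Serpinb8*. The promoters of *Serpina1c* and *Serpina1d* share an unbroken run of 55 bases, which shows how alike these paralogs are. A match to the letters is a description and not a binding site. The motif was chosen after the values below had been seen.

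The values are log2 signals after RMA, a procedure that corrects background, gives all arrays one distribution and merges probes into 1 value per probe set. A difference of 1 is a change of 2-fold. Array medians lay between 5.04 and 5.07, and pairs of arrays correlated at 0.997 to 0.998 if treated alike and at 0.995 to 0.997 if not. The hepatocyte label held on its markers, since albumin (*Alb*) had 13.41 to 13.48 on the miR-709 arrays and 13.46 to 13.52 on the Cel-239b arrays, and all 10 measured hepatocyte markers had a mean of at least 5. Of 20 stellate cell markers 1 was called lower with miR-709 (*Vim*) and none higher, where 1.47% and 1.81% of all genes were. Their summed linear signal was 4664 to 5350 with miR-709 and 6123 to 6465 with Cel-239b. *Vim* made up 81.7% to 86.5% of that sum, and the other 19 summed to 842 to 927 with miR-709 and 866 to 879 with Cel-239b. The list did not hold the smooth muscle contractile genes *Acta2*, *Tagln* and *Cnn1*. These were called lower with miR-709 (log2 fold changes of -1.34, -1.25 and -1.24) and were counted with the TGF-beta and serum response factor genes below. Of 10 cholangiocyte markers 1 was called lower (*Krt19*) and none higher, against the same shares of all genes. Their sums were 5009 to 5365 with miR-709 and 5675 to 5868 with Cel-239b. Once *Krt19* was left out, the sums were 4551 to 4940 with miR-709 and 4950 to 5030 with Cel-239b. Neither *Vim* nor *Krt19* passed by the per-gene test that the methods name (adjusted p = 0.0787 and 0.273). The defining stellate gene *Lrat* was dim, with means of 3.83 with miR-709 and 3.85 with Cel-239b. Even so, 11 of the 20 stellate markers had a mean of at least 5, as did 6 of the 10 cholangiocyte markers. So did 7 of 17 endothelial markers and 2 of 21 Kupffer cell and leukocyte markers. Endothelial markers summed to 497 to 514 with miR-709 and 481 to 506 with Cel-239b, and Kupffer cell and leukocyte markers to 1876 to 2121 with miR-709 and 1706 to 2042 with Cel-239b. Most of the Kupffer cell and leukocyte sum came from *Cd68* (log2 signals of 10.60 to 10.82 with miR-709 and 10.44 to 10.76 with Cel-239b). No gene of the endothelial or of the Kupffer cell and leukocyte list was called by limma, and 2 of the 17 and 0 of the 21 had an unadjusted p under 0.05. The part of these markers in the serpin values was not tested, and in bulk RNA fewer cells of a type and less RNA per cell cannot be told apart.

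With miR-709, 5 of the 47 serpin genes passed the test, where 3.28% of all genes did. A gene is called at an adjusted p under 0.05 from limma, a linear model of both treatments with Benjamini-Hochberg adjustment over all 19938 genes. *Serpina7*, *Serpina6* and *Serpinb9c* were higher (3 of 47, against 1.81% of all genes) and *Serpina3n* and *Serpinb8* were lower (2 of 47, against 1.47%). The median log2 fold change was 0.06 over the family and 0.01 over all genes. All 4 miR-709 arrays lay above all 3 Cel-239b arrays for 10 serpin genes (7.44% of all genes) and below them for 2 (4.91%). A mean log2 signal of at least 5 was reached by 18 of the 47, and these held 4 of the 5 calls, where 5.74% of all genes that bright were called. By the per-gene test without shared variance that the methods name, with the same adjustment, only *Serpina3n* stayed past the threshold (adjusted p = 0.00717).

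**Figure D1:**
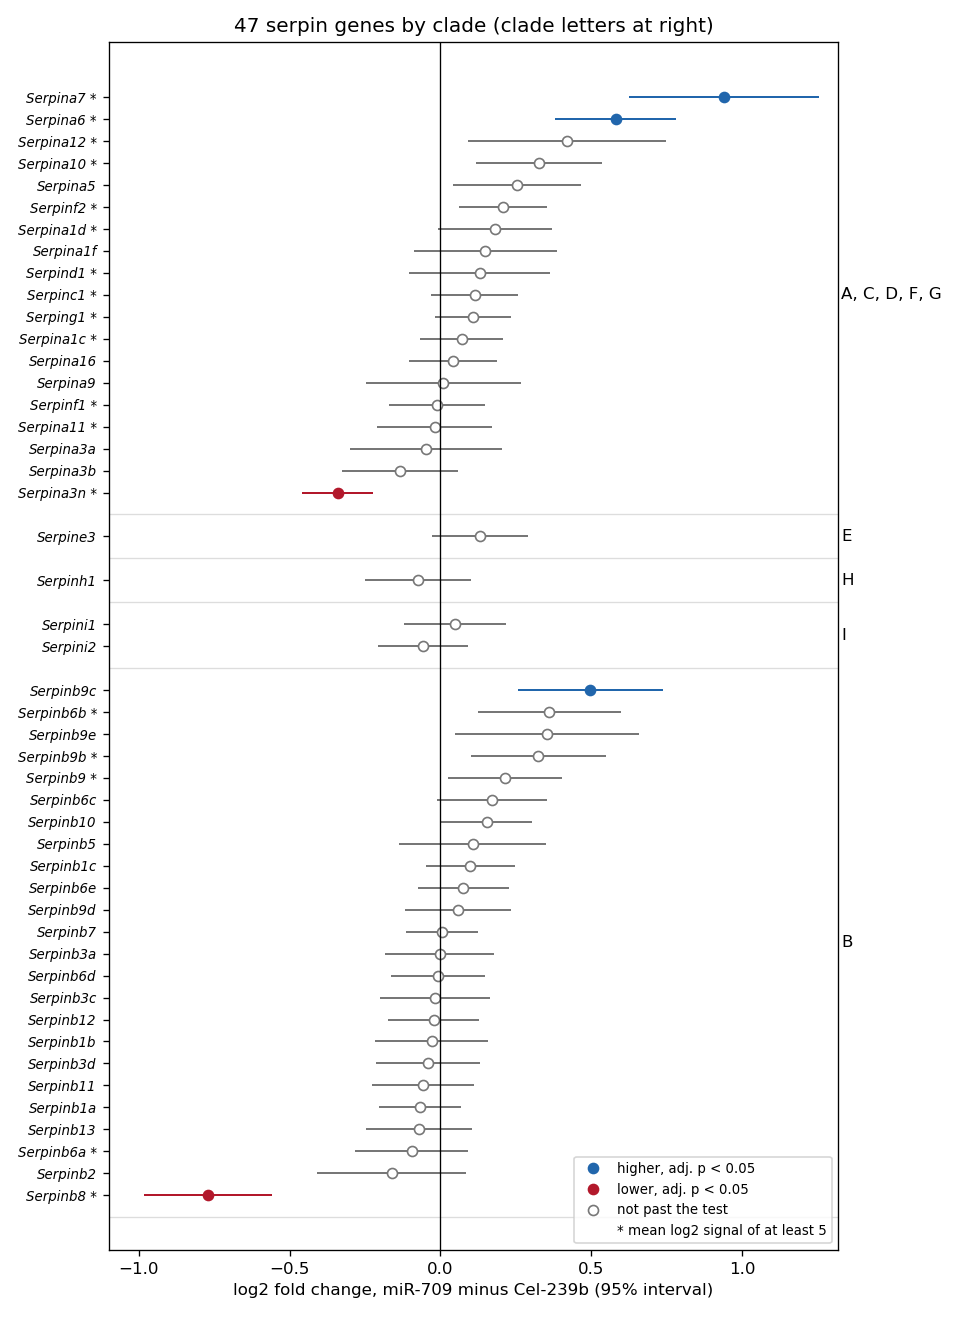
Log2 fold change (miR-709 minus Cel-239b) of each of the 47 serpin genes with its 95% interval from limma, grouped by clade (letters at right). Filled points passed an adjusted p under 0.05, blue for higher and red for lower; an asterisk marks a mean log2 signal of at least 5. *Serpina7* lies farthest to the right at 0.94 and *Serpinb8* farthest to the left at -0.77.

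The 2 hormone carriers of the family were both higher with miR-709. *Serpina7*, thyroxine-binding globulin, had log2 signals of 9.24, 9.03, 8.89 and 8.87 on miR-709 arrays A to D, against 8.36, 8.08 and 7.76 on Cel-239b arrays B to D. The lowest miR-709 array stood above the highest Cel-239b array, although the Cel-239b arrays were themselves spread widely. The means were 9.01 ± 0.17 (SD, n = 4) with miR-709 and 8.07 ± 0.30 (SD, n = 3) with Cel-239b, a log2 fold change of 0.94 or 1.92-fold (standard error 0.14, 95% interval 0.63 to 1.25, adjusted p = 0.00634 from limma). *Serpina6*, corticosteroid-binding globulin, had 7.04, 6.88, 6.69 and 6.73 with miR-709, against 6.30, 6.27 and 6.19 with Cel-239b. Here too the treatments did not overlap, and the Cel-239b arrays lay close together. Its means were 6.84 ± 0.16 (SD, n = 4) with miR-709 and 6.25 ± 0.06 (SD, n = 3) with Cel-239b, a log2 fold change of 0.58 or 1.5-fold (standard error 0.09, 95% interval 0.38 to 0.78, adjusted p = 0.00697 from limma). In both genes replicates A and B were above replicates C and D of the miR-709 arrays. With the per-gene test of the methods the adjusted p was 0.116 for *Serpina7* (0.00190 to 0.116 over 20 alternatives) and 0.0922 for *Serpina6* (0.00222 to 0.0922), so neither was called.

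**Figure D2:**
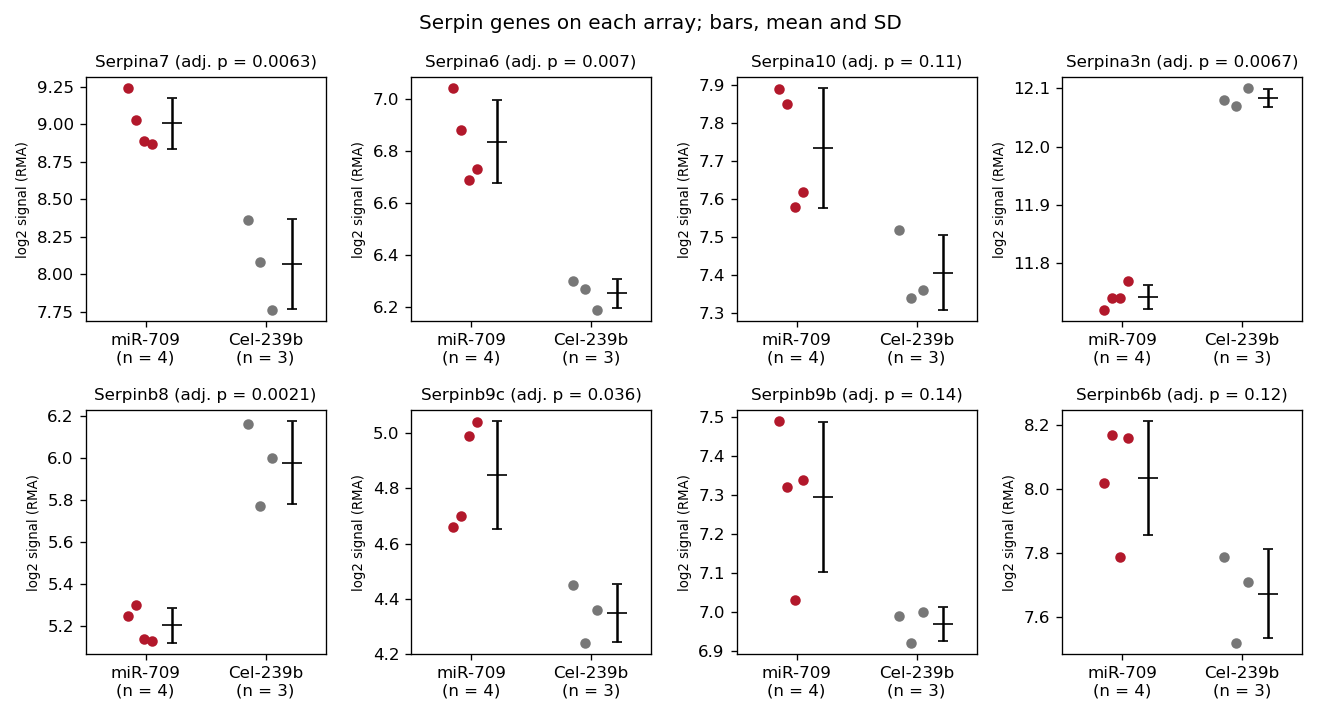
Log2 signal (RMA) of 8 serpin genes on each array, with miR-709 (red, n = 4) left of Cel-239b (grey, n = 3) and mean and SD as bars beside the points, on separate axes that start above 0. For *Serpina3n* the miR-709 arrays lie between 11.72 and 11.77 and the Cel-239b arrays between 12.07 and 12.10.

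Among 10 measured genes that carry the same hormones or handle thyroid hormone and glucocorticoids, 1 was called higher and none lower (1.81% and 1.47% of all genes were). It was *Dio1*, the liver deiodinase that converts thyroxine, with 5.67, 5.78, 5.77 and 5.78 with miR-709, against 4.75, 5.22 and 5.45 with Cel-239b (log2 fold change 0.61, standard error 0.14, adjusted p = 0.0475). Neither it nor the other 9 passed by the per-gene test of the methods (adjusted p = 0.275 for *Dio1*). *Ttr*, transthyretin, which also carries thyroxine, had 12.92, 12.99, 12.87 and 12.90 with miR-709, against 12.95, 12.85 and 12.92 with Cel-239b (adjusted p = 0.946). *Nr3c1*, the glucocorticoid receptor, had 7.76 to 7.81 with miR-709 and 7.66 to 7.74 with Cel-239b (adjusted p = 0.556). The median of the 10 genes was 0.05 on the log2 fold scale.

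The 3 genes whose log2 values followed *Serpina7* most closely over the 7 arrays, of 10968 other genes with a mean of at least 5, were *B230219D22Rik* (Pearson's r = 0.989), *Fbxl20* (0.988) and *Btbd10* (0.986). *Btbd10* had 6.21, 6.26, 6.08 and 6.11 with miR-709, against 5.59, 5.35 and 5.14 with Cel-239b. These correlations include the step between treatments and are a description only.

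The antitrypsins and antichymotrypsins, the abundant elastase and chymotrypsin inhibitors of plasma, did not move together. *Serpina3n*, a mouse counterpart of human alpha-1 antichymotrypsin and an acute phase protein, fell. It had 11.72, 11.74, 11.74 and 11.77 with miR-709, against 12.08, 12.07 and 12.10 with Cel-239b. No other called serpin had such tight replicates, with means of 11.74 ± 0.02 (SD, n = 4) with miR-709 and 12.08 ± 0.02 (SD, n = 3) with Cel-239b. The log2 fold change was -0.34, or 1.27-fold lower (standard error 0.05, 95% interval -0.46 to -0.23, adjusted p = 0.00673 from limma, 0.000870 to 0.0721 over 20 alternatives). The call was lost in 2 of these. *Serpina3b* had 3.72, 3.58, 3.89 and 3.57 with miR-709, against 3.85, 3.86 and 3.76 with Cel-239b, and *Serpina3a* was as dim, with a mean of 3.53 with miR-709 and 3.58 with Cel-239b. Neither passed the test (adjusted p = 0.520 and 0.890). The alpha-1 antitrypsin gene *Serpina1c* had 12.88, 12.97, 12.81 and 12.85 with miR-709, against 12.77, 12.80 and 12.85 with Cel-239b. The groups overlapped and the log2 fold change was 0.07 (95% interval -0.06 to 0.21, adjusted p = 0.645). Its paralog *Serpina1d* had 10.17, 10.08, 9.93 and 10.06 with miR-709, against 9.75, 10.03 and 9.86 with Cel-239b, a log2 fold change of 0.18 (95% interval -0.01 to 0.37, adjusted p = 0.35). *Serpina1f*, a dim relative, had 3.80 to 3.99 with miR-709 and 3.53 to 3.99 with Cel-239b. Probes of the *Serpina1* and *Serpina3* genes may take up transcripts of their paralogs, so these are values of probe sets rather than of single genes.

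Of 24 acute phase genes measured beside them, 2 were called higher, 1 lower and 21 were not called. Over all genes 1.81% were called higher and 1.47% lower. All 24 had a mean of at least 5, where 5.74% of genes were called in either direction. Haptoglobin (*Hp*, log2 fold change 0.375) and serum amyloid P (*Apcs*, 0.415) rose, and the interleukin-1 receptor antagonist (*Il1rn*, -0.30) fell. *Hp* had 12.53 to 12.74 with miR-709 and 12.27 to 12.29 with Cel-239b, without overlap. The serum amyloid gene *Saa1* had 9.01 to 9.19 with miR-709 and 8.85 to 9.27 with Cel-239b (adjusted p = 0.980). The median of the 24 was 0.08, and the per-gene test of the methods called 0 of them after adjustment.

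Among the secreted clades, none of 6 inhibitors of coagulation, fibrinolysis or complement passed the test. Of these, 4 were above all control arrays on every miR-709 array. So were 7.44% of all genes and 11.8% of the genes with a mean of at least 5. *Serpinb2* and *Serpini1*, inhibitors of plasminogen activators from other clades, overlapped with the control arrays. *Serpina10*, the protein Z-dependent inhibitor of factor Xa, had 7.89, 7.85, 7.58 and 7.62 with miR-709, against 7.52, 7.34 and 7.36 with Cel-239b. The treatments did not overlap, yet the adjusted p was 0.109 (log2 fold change 0.33, standard error 0.09). It passed once genes averaging under 6 were removed before testing (adjusted p = 0.0450, 0.0450 to 0.324 over 20 alternatives). *Serpinf2*, alpha-2 antiplasmin, had 11.56, 11.65, 11.44 and 11.49 with miR-709, against 11.31, 11.33 and 11.34 with Cel-239b (log2 fold change 0.21, 95% interval 0.06 to 0.35, adjusted p = 0.145). Its arrays were also apart. *Serping1*, C1 inhibitor, had 11.27, 11.31, 11.26 and 11.26 with miR-709, against 11.19, 11.10 and 11.21 with Cel-239b (adjusted p = 0.402). *Serpinc1*, antithrombin, had 9.84, 9.98, 9.81 and 9.85 with miR-709, against 9.70, 9.77 and 9.80 with Cel-239b (log2 fold change 0.11, 95% interval -0.03 to 0.25, adjusted p = 0.444). Both lay just above the control arrays by amounts close to the spread within a treatment. *Serpind1*, heparin cofactor II, had 6.28 to 6.60 with miR-709 and 6.17 to 6.47 with Cel-239b, and *Serpina5*, the protein C inhibitor, had 4.68 to 4.92 with miR-709 and 4.41 to 4.75 with Cel-239b (adjusted p = 0.613 and 0.229). *Serpinf1*, the anti-angiogenic pigment epithelium-derived factor, had a log2 fold change of -0.01 (95% interval -0.17 to 0.14).

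The other secreted serpins have less settled roles. *Serpina12*, the adipokine vaspin, had 6.30, 5.79, 5.88 and 5.82 with miR-709, against 5.26, 5.75 and 5.57 with Cel-239b, and did not pass (log2 fold change 0.42, standard error 0.14, adjusted p = 0.198). Replicate A of miR-709 was its high array and replicate B of Cel-239b its low one. *Serpina11* (mean of 6.41 with miR-709 and 6.43 with Cel-239b), *Serpina9* (3.53 with miR-709 and 3.52 with Cel-239b) and *Serpina16* (3.46 with miR-709 and 3.42 with Cel-239b) had adjusted p of 0.946, 0.981 and 0.820. Over all 19 secreted serpins, 2 were called higher, 1 lower and 16 were not called (1.81% and 1.47% of all genes were called higher and lower), and the median log2 fold change was 0.11. Among the 13 of them with a mean of at least 5 the median was 0.13, and 7 had all miR-709 arrays above all Cel-239b arrays, as did 11.8% of all genes that bright.

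The proteases and cofactors that these serpins act on were read from the same fit. Of 31 measured, 1 was called higher, 1 lower and 29 were not called, with a median log2 fold change of 0.07. Over all genes 1.81% were called higher and 1.47% lower. *F11*, coagulation factor XI, had 8.25, 8.29, 8.23 and 8.23 with miR-709, against 7.95, 8.04 and 7.96 with Cel-239b (log2 fold change 0.27, adjusted p = 0.0297). *Plaur*, the receptor that holds urokinase at the cell surface, had 9.82, 9.78, 9.59 and 9.71 with miR-709, against 10.39, 10.47 and 10.60 with Cel-239b. It was lower by more than the spread of either group (log2 fold change -0.76, standard error 0.08, adjusted p = 0.000732). Prothrombin (*F2*), the target of antithrombin, had 10.92 to 11.04 with miR-709 and 10.94 to 11.01 with Cel-239b.

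Of 14 liver transcription factors measured, *Hnf4a* and *Nr1i2* were called higher and none lower. Over all genes 1.81% were called higher and 1.47% lower. *Hnf4a*, which drives many genes of secreted liver proteins, had 9.94, 9.95, 9.93 and 10.03 with miR-709, against 9.45, 9.43 and 9.31 with Cel-239b (log2 fold change 0.57, standard error 0.06, adjusted p = 0.00104). *Nr1i2*, the xenobiotic receptor PXR, had 7.41 to 7.53 with miR-709 and 6.80 to 7.05 with Cel-239b (log2 fold change 0.56). Their part in the serpin values was not tested.

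Among the intracellular clade B serpins 1 gene fell, 1 rose and 22 were not called. Over all genes 1.47% were called lower and 1.81% higher. *Serpinb8*, whose human counterpart inhibits the proprotein convertase furin, had the greatest change of the 24. It had 5.25, 5.30, 5.14 and 5.13 with miR-709, against 6.16, 5.77 and 6.00 with Cel-239b, so that every miR-709 array lay below every control array. The means were 5.21 ± 0.08 (SD, n = 4) with miR-709 and 5.98 ± 0.20 (SD, n = 3) with Cel-239b, a log2 fold change of -0.77 or 1.71-fold lower (standard error 0.09, 95% interval -0.98 to -0.56, adjusted p = 0.00209 from limma). Its adjusted p was 0.0598 with the per-gene test of the methods (0.000871 to 0.0827 over 19 alternatives).

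Of the *Serpinb9* genes, mouse relatives of the granzyme B inhibitor, 1 rose. All 5 measured ones had a log2 fold change above 0, with a median of 0.325. Of all 19938 genes, 10946 had one above 0, with a median of 0.01. *Serpinb9c* had 4.66, 4.70, 4.99 and 5.04 with miR-709, against 4.45, 4.24 and 4.36 with Cel-239b (log2 fold change 0.50, 95% interval 0.26 to 0.73, adjusted p = 0.0355 from limma). Replicates C and D of miR-709 were its high arrays, and the signal was dim. This call was lost without any single one of Cel-239b replicates B, C and D and miR-709 replicates B, C and D (adjusted p = 0.0827, 0.174, 0.0941, 0.0514, 0.113 and 0.0961 in that order), and with the per-gene test of the methods (0.221, 0.0269 to 0.221 over 18 alternatives). *Serpinb9b* had 7.49, 7.32, 7.03 and 7.34 with miR-709, against 6.99, 6.92 and 7.0 with Cel-239b (log2 fold change 0.325, adjusted p = 0.140). *Serpinb9* itself, the granzyme B inhibitor, had 7.71, 7.53, 7.60 and 7.86 with miR-709, against 7.40, 7.47 and 7.51 with Cel-239b (log2 fold change 0.215, adjusted p = 0.251). Both were just above the controls on every miR-709 array, as were 11.8% of all genes with a mean of at least 5. *Serpinb9e* and *Serpinb9d* had log2 fold changes of 0.35 and 0.06 and overlapped. These genes lie in one cluster and are close in sequence, so their probes may share transcripts.

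*Serpinb6b*, which inhibits granzyme A in the mouse, had 8.02, 8.17, 7.79 and 8.16 with miR-709, against 7.79, 7.52 and 7.71 with Cel-239b (log2 fold change 0.36, standard error 0.10, adjusted p = 0.120). Replicate C of miR-709 stood at the level of the highest control array. Without that replicate *Serpinb6b* (adjusted p = 0.0460, 0.0460 to 0.359 over 20 alternatives) and *Serpinb9b* (0.0257, 0.0257 to 0.365) passed. *Serpinb6a*, a cathepsin G inhibitor and a bright clade B member, averaged 10.15 ± 0.14 (SD, n = 4) with miR-709 and 10.25 ± 0.06 (SD, n = 3) with Cel-239b (log2 fold change -0.09, 95% interval -0.28 to 0.09). The groups overlapped. Of the 24 clade B genes, 19 had a mean log2 signal under 5, among them *Serpinb1a*, an inhibitor of neutrophil elastase (4.52 with miR-709 and 4.59 with Cel-239b), *Serpinb2*, plasminogen activator inhibitor 2 (3.43 with miR-709 and 3.59 with Cel-239b), and *Serpinb5*, maspin (3.30 with miR-709 and 3.19 with Cel-239b). Apart from *Serpinb9c*, the log2 fold changes of these 19 lay between -0.16 and 0.35. At such signals a change may go unseen, so the lack of calls does not show that they stayed the same.

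Clades E, H and I gave no call by limma or by the per-gene test of the methods among 4 genes, and 0 of them had an unadjusted p under 0.05. *Serpinh1*, the chaperone HSP47 that folds collagen in the endoplasmic reticulum, had 5.0, 4.78, 5.02 and 5.05 with miR-709, against 4.97, 5.09 and 5.05 with Cel-239b (log2 fold change -0.07, 95% interval -0.25 to 0.10). *Serpine3* had 4.47, 4.55, 4.73 and 4.58 with miR-709, against 4.46, 4.47 and 4.42 with Cel-239b (log2 fold change 0.13, 95% interval -0.02 to 0.29). The neuroserpin gene *Serpini1*, an inhibitor of tissue plasminogen activator in neurons, had 3.14 to 3.37 with miR-709 and 3.13 to 3.26 with Cel-239b, and *Serpini2* had 2.74 to 2.80 with miR-709 and 2.76 to 2.97 with Cel-239b. All 4 had a mean log2 signal under 5. Of 21 collagen and collagen-processing genes measured beside *Serpinh1*, 2 were called lower and none higher (1.47% and 1.81% of all genes were). They were *Col4a2*, a basement membrane collagen (log2 fold change -0.70, adjusted p = 0.000543), and *P4ha1*, a prolyl hydroxylase of collagen (-0.37, adjusted p = 0.00784).

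Most serpin genes sit in clusters, with 13 of the measured genes on chromosome 12, 13 on chromosome 13 and 12 on chromosome 1 (GRCm38.p6). On chromosome 1 *Serpinc1* lies apart from the clade B cluster, between *Rc3h1* and *Zbtb37*. In the clade A cluster of chromosome 12, *Serpina10* and *Serpina6* are neighbours at one end, with log2 fold changes of 0.33 and 0.58, and *Serpina3n* lies last at the other end with -0.34. Between them *Serpina16*, *Serpina1f*, *Serpina1d*, *Serpina1c*, *Serpina11* and *Serpina9* lay between -0.02 and 0.18, and *Serpina12* and *Serpina5* had 0.42 and 0.25. Next to *Serpina3n*, the dim *Serpina3a* and *Serpina3b* had -0.05 and -0.13. The other called genes stand elsewhere, *Serpina7* alone on chromosome X, *Serpinb8* at the end of the clade B cluster on chromosome 1, and *Serpinb9c* amid that of chromosome 13. *Serpinb10*, the neighbour of *Serpinb8*, had a log2 fold change of 0.15 (adjusted p = 0.309) on a mean signal of 2.99. No cluster moved as a whole, with 1 gene called higher and 1 lower on chromosome 12, 1 higher on chromosome 13 and 1 lower on chromosome 1.

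**Figure D3:**
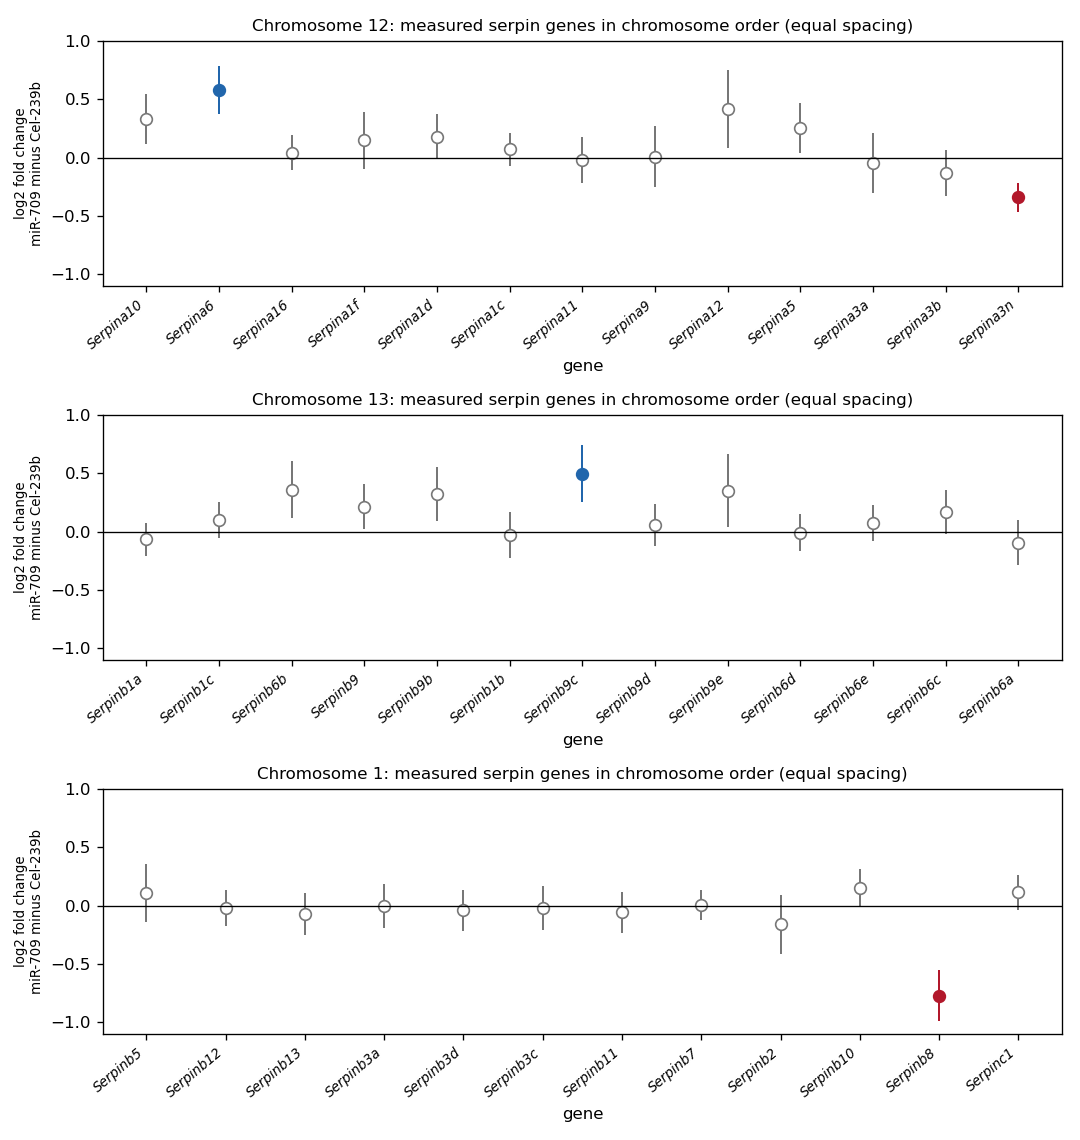
Log2 fold change (miR-709 minus Cel-239b) with its 95% interval for the measured serpin genes of chromosomes 12, 13 and 1, in chromosome order and at equal spacing. Filled points passed an adjusted p under 0.05 (blue higher, red lower), and each chromosome holds at most 2 of them. *Serpinc1* on chromosome 1 lies outside the clade B cluster.

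The interferon response genes stood higher on miR-709 arrays C and D than on A and B. Hepatocyte markers and the brighter secreted serpins differed far less between these pairs, in the other direction. The pairs were set apart after the values had been seen, and no such difference was tested. As a difference from the Cel-239b average, 25 interferon response genes together had -0.09, -0.02, 0.81 and 0.80 on miR-709 arrays A to D, against -0.19, -0.03 and 0.22 on Cel-239b arrays B to D. None of the 25 was called by limma or by the per-gene test of the methods, while 5 had an unadjusted p under 0.05. The 10 hepatocyte markers together had 0.21, 0.25, 0.13 and 0.12 on miR-709 arrays A to D, against 0.02, 0.03 and -0.04 on Cel-239b arrays. With all arrays *Tat* and *Cps1* were called higher (2 of 10, against 1.81% of all genes). The secreted serpins with a mean of at least 5 had 0.30, 0.24, 0.13 and 0.16 on miR-709 arrays A to D, against -0.01, 0.04 and -0.03 on Cel-239b arrays. Without arrays C and D the log2 fold change of *Serpina7* was 1.07 (adjusted p = 0.0789), of *Serpina6* 0.71 (0.0243), of *Serpina3n* -0.35 (0.0706), of *Serpinb8* -0.70 (0.0827) and of *Serpinb9c* 0.33 (0.174). Only *Serpina6* then passed, with 2 miR-709 arrays left, and 0.843% of all genes did. The part of the interferon genes in these values was not tested.

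**Figure D4:**
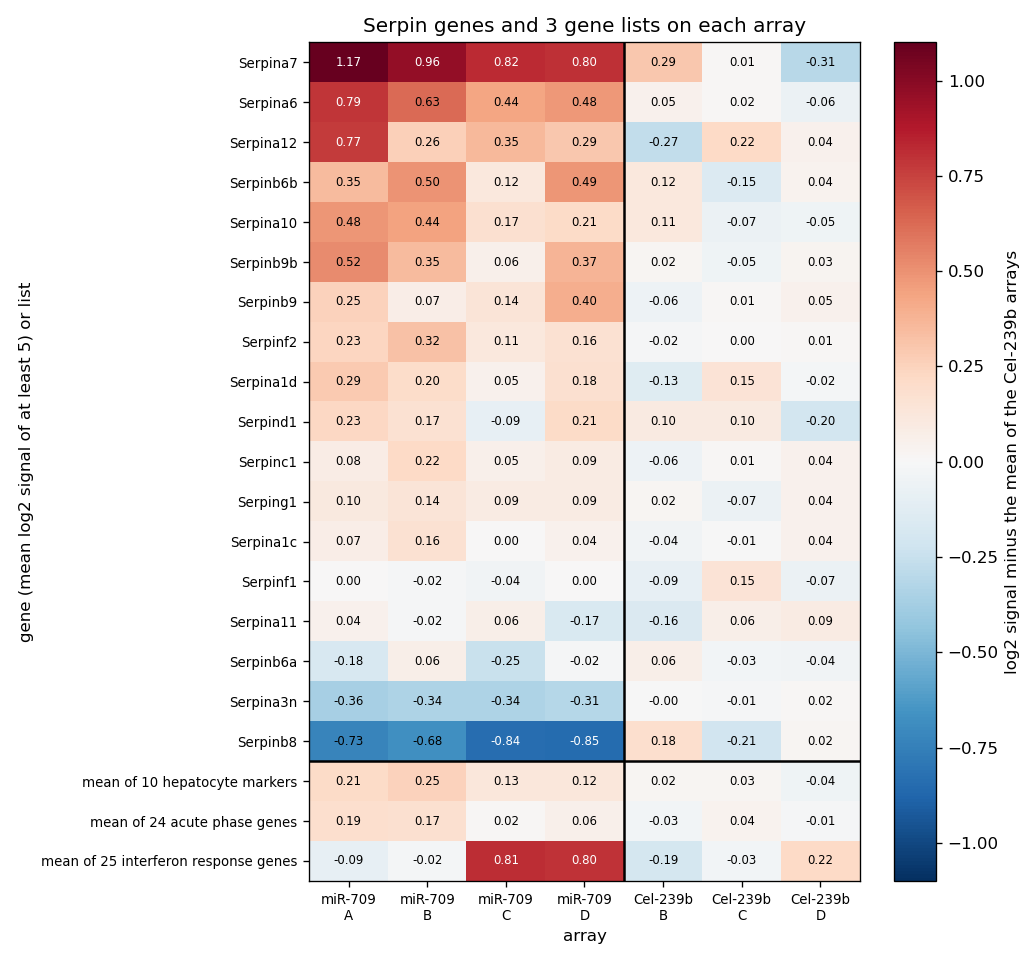
Log2 signal minus the mean of the Cel-239b arrays for the 18 serpin genes with a mean of at least 5 and, below the line, the means of 3 gene lists, on each array (red above 0, blue below; miR-709 left of the black line). *Serpina7* runs from 0.80 to 1.17 on the miR-709 arrays, and the interferon genes are near 0.8 on C and D only.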

How the data were processed

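The authors deposited log2 signals per probe set of 7 Affymetrix Mouse Gene 1.0 ST arrays, made with Partek and RMA (background correction, quantile normalization and summary of probes), in versions not given in the sources used here. Raw scans were not used, so these steps could not be varied, and differences in total RNA per cell are removed by the quantile step. Of 28853 probe sets, 21789 had 1 symbol in the platform annotation, 1621 several and 5443 none. Symbols were brought up to date through gene numbers (21698 matched), and the brightest probe set per gene gave 19938 genes. No 2 arrays held identical values.

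Treatments were compared with limma 3.58.1 (R 4.3.3; 2-sided, no block, Benjamini-Hochberg over all genes), and the standard error of the difference had a median of 0.08. The number of arrays limits the precision. Per the methods, a 1-way ANOVA of log2 signals was run as an alternative.

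Values on every array are given for *Serpina7*, for called genes and for the genes of lowest p in each clade, with others where a group needed them, and list genes are named when called. Genes of the lists named without a call were chosen after their values were seen. The members and the gene lists were chosen with earlier results of these data known. Other alternatives were limma-trend, the mean of probe sets, all probe sets, filters on dim genes, cyclic loess, median centring, a further quantile normalization, array weights, the replicate letter as a block and each array left out. Leaving out miR-709 arrays C and D together was chosen after seeing the data.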

Additional observations from a re-analysis of the deposited data

Results flagged for a closer look

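In 3 serpin genes 1 of the 4 miR-709 arrays was set apart by its gap to the nearest array divided by the whole range. Chance flags about 1 in 20 groups, and 47 were looked at. *Serpinb2*, plasminogen activator inhibitor 2, had 3.14 on replicate A and 3.51 to 3.55 on the others (gap of 0.902 of the range). *Serpinb7* had 2.53 on replicate A and 2.47 on each of the others (gap of 1 of the range). *Serpini2* had 2.74 on replicate B and 2.80 on each of the others (gap of 1 of the range). In the last 2 genes the other 3 arrays were tied at 2 decimals, so a small gap filled the range. All 3 genes were dim and none was called.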

How the results depend on the processing

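Of the 47 serpin genes 3 were called higher and 2 lower, and limma-trend, the other probe set choices, the other normalizations and the letter as a random block kept those counts. With the ANOVA of the methods 0 were higher and 1 was lower (secreted clades 0 higher; clade B 0 higher and 0 lower; lists beside the serpins 4 higher and 7 lower), and *Serpina7* had the same log2 fold change of 0.94 with adjusted p = 0.116. Over genes with a mean of at least 5, clade B had 0 higher; at least 6, 1 serpin was lower, clade B had 0 higher and 0 lower, and the lists had 13 higher. With array weights clade B had 0 higher. Between arrays of the same replicate letter, deviations from the treatment mean correlated at 0.019, 0.017 and 0.046. With so few arrays per treatment, such values cannot tell whether a letter marks a shared isolation. With the letter as a fixed replicate block 1 serpin was lower, with 0 lower in the secreted clades, 0 higher in clade B and 4 higher in the lists. In all, 180 genes were then higher and 221 lower, against 361 and 293. Leaving out 1 array at a time gave 0 to 2 clade B genes higher and 4 to 6 list genes higher, where 8 were higher with all arrays. Without miR-709 arrays C and D, chosen after seeing the data, 1 serpin was higher and 0 lower (secreted clades 1 and 0; clade B 0 and 0; lists 2 and 6), and *Serpina7* had 1.07. No direction of a called gene turned in any of these. Signals near the low end of the arrays limit what can be seen of most clade B genes.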

Other observations

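Of 18 measured genes that respond to TGF-beta or the serum response factor, 6 were called lower with miR-709 (1.47% of all genes), none higher and 12 were not called. Of the 18, 5 had a log2 fold change above 0, and the median of the 18 was -0.13 (0.01 over all genes). *Thbs1*, thrombospondin 1, which activates TGF-beta, fell by 1.42 on the log2 scale (limma adjusted p = 0.000269), and the smooth muscle contractile genes *Acta2*, *Tagln* and *Cnn1* had -1.34, -1.25 and -1.24. Relative to Cel-239b the 18 genes together had -0.31, -0.31, -0.39 and -0.43 on miR-709 arrays A to D, against 0.01, 0.00 and -0.02 on Cel-239b arrays B to D. The list of 20 stellate cell markers did not hold *Acta2*, *Tagln* or *Cnn1*. Among those 20 *Vim* alone was called lower, and their median log2 fold change was -0.02.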
